A study of Mus musculus with 39 samples.

Results

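Expression of 9 genes of the PPARα and fasting response, *Cyp4a10*, *Cyp4a14*, *Cyp4a31*, *Acot1*, *Cpt1a*, *Ehhadh*, *Pdk4*, *Fgf21* and *Angptl4*, was followed in RNA-Seq libraries from mice without the bHLH factor E47 and from their controls. The genes were looked up by symbol, and all 9 were found among the 45706 genes that every count file lists. The study asked whether E47, a splice product of *Tcf3*, takes part in the metabolic actions of glucocorticoids, and its 39 libraries make 12 groups in 6 experiments. All mice were male C57BL/6 on chow. Mice lacking E47 in every cell (E47-/-, here E47KO) and wildtype littermates (E47+/+, WT) drank dexamethasone (Dex, 10 µg/ml) or corticosterone (Cort, 100 µg/ml) for 3 weeks and were killed after a glucose tolerance test, for which mice were fasted overnight according to the methods. Dex gave 3 E47KO and 2 WT livers, 3 and 2 quadriceps muscles, and 2 of each genotype from white adipose tissue (WAT, epididymal). Of these mice, 3 gave both liver and muscle. Cort gave 4 livers of each genotype. A further 6 E47KO and 5 WT livers came from untreated mice. The last experiment injected Dex (1 mg/kg i.p.) and took the liver 1 h later from freely fed mice. It compared 3 Albcre/+;E47fl/fl mice (E47LKO), in which Cre runs under the albumin promoter and removes E47 in hepatocytes, with 3 controls without Cre, of which replicate 1 was Alb+/+;E47fl/+ and replicates 2 and 3 were Alb+/+;E47fl/fl. E47-/- mice lack the factor in every cell from the start of development and have no mature B cells.

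PPARα is the nuclear receptor through which the liver senses fatty acids. In fasting, fatty acids released from adipose tissue reach the liver, and PPARα, bound to DNA with RXR, switches on their uptake, oxidation and conversion to ketone bodies. Glucocorticoids rise in the same state, and some of these genes, such as *Pdk4* and *Angptl4*, are also known targets of the glucocorticoid receptor (GR). *Cyp4a10*, *Cyp4a14* and *Cyp4a31* encode microsomal cytochromes P450 that hydroxylate the omega end of fatty acids, and *Cyp4a10* and *Cyp4a14* are classical markers of PPARα activity in rodents. *Acot1* encodes a cytosolic thioesterase that frees fatty acids from coenzyme A. *Cpt1a* encodes the liver carnitine palmitoyltransferase that admits long-chain fatty acids to mitochondria, and *Ehhadh* the bifunctional enzyme of peroxisomal beta-oxidation. *Pdk4* encodes a kinase that switches off pyruvate dehydrogenase and so spares glucose. *Fgf21* and *Angptl4* encode secreted proteins, the first a fasting hormone and the second an inhibitor of lipoprotein lipase.

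The *Cyp4a* members lie side by side on mouse chromosome 4 and have close copies, which bears on how their reads can be counted. In mm10 (GRCm38) coordinates, *Cyp4a14* (ENSMUSG00000028715) lies at chr4:115486200-115496142 on the minus strand, *Cyp4a10* (ENSMUSG00000066072) at chr4:115518264-115533649 and *Cyp4a31* (ENSMUSG00000028712) at chr4:115563649-115579015, both on the plus strand. The coding sequences of *Cyp4a10* and *Cyp4a31* are 96.6% identical and differ at 52 of 1530 bases. *Cyp4a32*, which is no member, is 97.2% identical to *Cyp4a10* and 96% identical to *Cyp4a31*, whereas *Cyp4a14* and *Cyp4a10* share 76.1%. Of all stretches of 50 bases in the transcripts, 30.5% in *Cyp4a10* and 21.8% in *Cyp4a31* occur word for word in another gene, so part of their reads has no unique source and their levels are less certain than those of *Cyp4a14*, with 0.245%. Coding bases 23 to 142 were chosen as the stretch of 120 bases with the most differences between the 2, so they are less alike here than over the whole coding sequence. The stretch is given because the values of the 2 genes after Cort are set side by side below. Capitals mark the 9 bases at which the transcripts differ.
Cyp4a10: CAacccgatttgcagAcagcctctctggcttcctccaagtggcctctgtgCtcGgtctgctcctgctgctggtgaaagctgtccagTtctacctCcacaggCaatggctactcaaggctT
Cyp4a31: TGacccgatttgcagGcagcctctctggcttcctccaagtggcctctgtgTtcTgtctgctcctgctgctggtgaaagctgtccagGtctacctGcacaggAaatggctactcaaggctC

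*Acot1* (ENSMUSG00000072949, chr12:84009490-84018371, plus strand) has a similar neighbour, *Acot2*, with 95.5% identical coding bases, and 33.6% of its 50-base stretches recur elsewhere. The other members are nearly free of shared sequence, with 1.43% in *Pdk4* and 0 in *Cpt1a*, *Ehhadh*, *Fgf21* and *Angptl4*. *Cpt1a* (ENSMUSG00000024900) lies at chr19:3322334-3385733 on the plus strand. On the minus strands are *Ehhadh* (ENSMUSG00000022853, chr16:21761287-21787807), *Pdk4* (ENSMUSG00000019577, chr6:5483351-5496309), *Fgf21* (ENSMUSG00000030827, chr7:45613886-45615490) and *Angptl4* (ENSMUSG00000002289, chr17:33773750-33781830).

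E47 binds DNA at E-boxes, CANNTG, so the 250 bases upstream of the start sites were searched for this motif on both strands. RefSeq promoters (GRCm38.p6) were at hand for 5 members, *Pdk4*, *Fgf21*, *Acot1*, *Ehhadh* and *Cpt1a*, and all 5 held an E-box, as did 66.2% of 32851 promoters. The tandem PPARα-RXR motif, 2 copies of AGGTCA with 1 base between them, was in none of the 5 and in 0.0335% of all promoters. Its single hexamer AGGTCA, which the tandem motif contains, was in *Cpt1a* and in 14% of promoters, the GR hexamer AGAACA in *Acot1* and in 16.1%, and the ATF4-type element TGANGCAA in *Fgf21* and in 3.12%. A match is a description of letters, not a bound site. Of the promoters, those of *Fgf21* and *Acot1*, which were higher in every group treated for 3 weeks below, and of *Cpt1a*, which was not, are printed with the E-boxes in capitals. The first bases of these E-boxes lie 88 and 50 bases upstream of the RefSeq start in *Fgf21*, 146 in *Acot1* and 32 in *Cpt1a*. RefSeq starts can differ from the gene starts given above. The *Cpt1a* stretch lies wholly, and the *Acot1* stretch partly, within the gene coordinates given there.
Fgf21, chr7:45615491-45615740, minus strand: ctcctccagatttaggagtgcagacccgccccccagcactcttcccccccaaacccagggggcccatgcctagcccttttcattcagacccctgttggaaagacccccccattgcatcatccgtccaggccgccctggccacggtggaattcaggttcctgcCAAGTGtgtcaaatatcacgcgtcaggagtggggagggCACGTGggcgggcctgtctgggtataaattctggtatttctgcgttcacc
Acot1, chr12:84009252-84009501, plus strand: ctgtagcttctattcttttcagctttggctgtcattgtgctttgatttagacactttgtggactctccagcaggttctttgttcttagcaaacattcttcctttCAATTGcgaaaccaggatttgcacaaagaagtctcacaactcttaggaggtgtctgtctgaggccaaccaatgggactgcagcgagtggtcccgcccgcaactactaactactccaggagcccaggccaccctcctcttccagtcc
Cpt1a, chr19:3323051-3323300, plus strand: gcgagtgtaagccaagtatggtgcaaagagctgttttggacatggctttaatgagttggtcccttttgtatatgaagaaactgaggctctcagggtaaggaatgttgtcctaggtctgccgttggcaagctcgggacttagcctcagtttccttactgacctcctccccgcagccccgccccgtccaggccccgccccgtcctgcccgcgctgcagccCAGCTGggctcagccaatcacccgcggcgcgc

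The libraries held 15.5 to 54.6 M counts assigned to genes, and levels are given in CPM, the counts of a gene per M of these. Levels of different genes are compared only per kb of exon. Counting per gene cannot check the loss of E47, since *Tcf3* also encodes the splice form E12, and *Tcf3* differed between genotypes by -0.15 to 0.23 on the log2 scale. All 10 hepatocyte markers examined were expressed in every liver group, with summed levels per liver of 93791 to 167309 CPM. Traces of skeletal muscle RNA varied among livers, the sum of 10 muscle markers being 0.608 to 496 CPM in livers and 140520 to 184685 CPM in muscle. In bulk tissue, fewer cells of a type and less RNA per cell cannot be told apart. Replicates of a group carried different animal numbers in the deposited names.

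In livers of untreated WT mice (n = 5) the mean levels per kb of exon ran from *Cyp4a10* with 96.3 CPM per kb, through *Ehhadh* with 87, *Cpt1a* with 68.6, *Cyp4a14* with 37.2 and *Angptl4* with 35.4, to *Acot1* with 4.16, *Pdk4* with 2.55, *Cyp4a31* with 1.9 and *Fgf21* with 0.438. After 3 weeks of Dex in WT mice (n = 2) the order began with *Cyp4a14*, now at 1345 CPM per kb, and *Cyp4a10* at 717. The treated livers, whether E47KO or WT, formed a group of their own for 3 members. *Cyp4a10* was at 42.7 to 437 CPM (median 243) in the 17 livers of untreated and 1 h mice and at 1033 to 3828 CPM (median 1600) in the 13 livers after 3 weeks of Dex or Cort. *Cyp4a14* was at 6.69 to 834 CPM (median 169) and at 2417 to 8727 CPM (median 3486). *Fgf21* was at 0.227 to 2.43 CPM (median 0.538) and at 3.04 to 29.6 CPM (median 12.3). The ranges of these 3 members did not overlap, whereas those of the other 6 did. Of the neighbouring groups in the order of mean *Cyp4a10* levels among livers, only E47KO with Cort (1414 CPM) and E47LKO after 1 h of Dex (352 CPM) were apart, and all other neighbours overlapped.

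**Figure D1:**
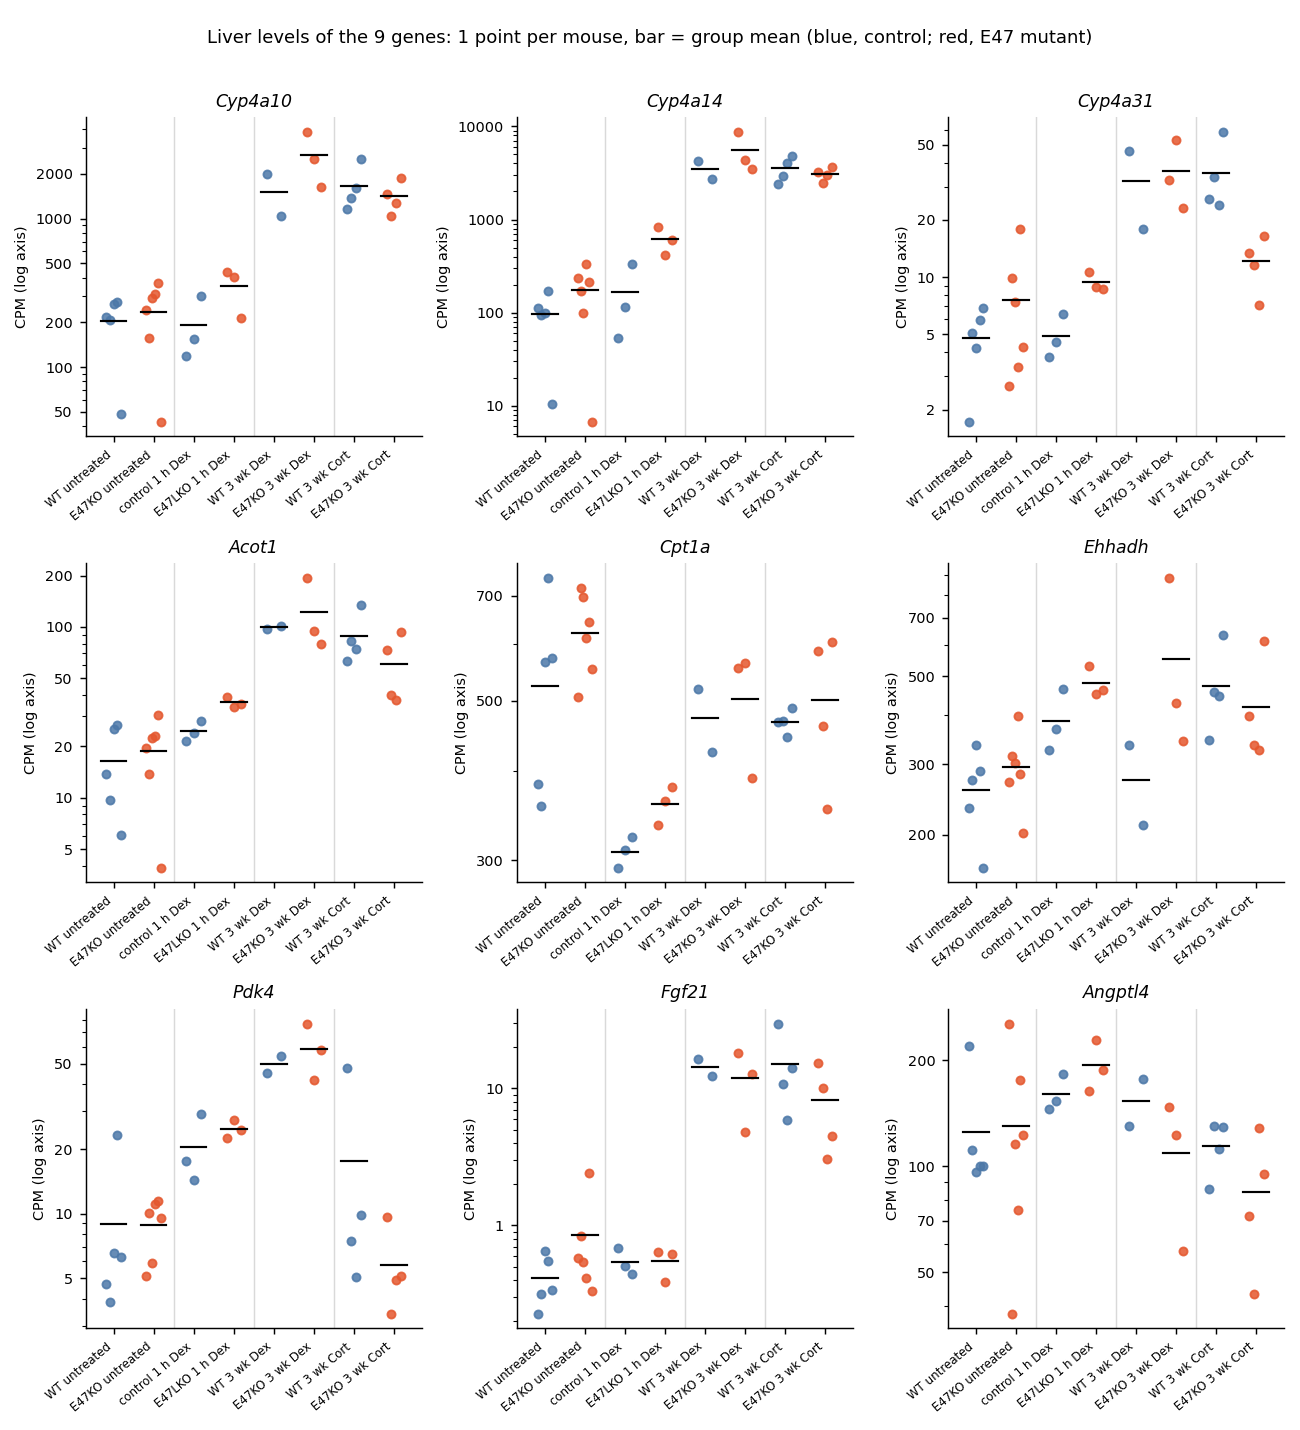
Levels of the 9 genes in the 30 livers, in CPM on log axes, 1 panel a gene, with 1 point a mouse and a bar at the group mean; controls are blue and mutants red. *Cyp4a10*, *Cyp4a14* and *Fgf21* stood above all untreated and 1 h livers in every liver after 3 weeks of Dex or Cort, while the ranges of *Cpt1a*, *Ehhadh* and *Angptl4* overlapped.

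In WT mice, 6 of the 9 members were higher after 3 weeks of Dex than in untreated livers at an adjusted p under 0.05 (edgeR quasi-likelihood test, Benjamini-Hochberg over 16227 genes), and none was lower, where 31.9% of all genes tested were called and 15.6% were called higher. The *Cyp4a* genes and *Fgf21* are given first. *Cyp4a14* was at 93.6 to 169 CPM in untreated WT replicates 1 to 4, at 10.5 CPM in replicate 5 and at 4269 and 2729 CPM after Dex, 35.9 times as high (log2 5.17 ± 0.77 SE, adjusted p = 1.36e-05). *Cyp4a10* was at 217, 209, 266, 275 and 48 CPM untreated and at 1990 and 1033 CPM after Dex, 7.33 times as high (log2 2.87 ± 0.52, adjusted p = 0.000145). *Cyp4a31*, far scarcer, was at 1.72, 5.09, 4.22, 5.94 and 6.85 CPM untreated and at 46.3 and 17.9 CPM after Dex, 6.66 times as high (log2 2.74 ± 0.50, adjusted p = 0.00016). In all 3 the lowest treated liver stood above the highest untreated liver. Untreated WT replicate 5, the lowest for *Cyp4a10* and *Cyp4a14*, was the highest for *Cyp4a31*.

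*Fgf21* was at 0.227, 0.318, 0.647, 0.552 and 0.337 CPM in untreated WT livers and at 16.3 and 12.3 CPM after Dex, 33.5 times as high (log2 5.07 ± 0.62, adjusted p = 9.72e-07). *Acot1* was at 13.7, 9.73, 25.3, 26.8 and 6.07 CPM untreated and at 97.8 and 101 CPM after Dex (log2 2.62 ± 0.48, adjusted p = 0.000149). *Pdk4* was at 4.7, 3.88, 6.55, 23.3 and 6.26 CPM untreated and at 45.4 and 54.1 CPM after Dex (log2 2.51 ± 0.58, adjusted p = 0.00149). For these hormone, thioesterase and kinase genes the libraries did not overlap either, which makes 6 of 9 members apart against 40.2% of all genes. The rest were not called. *Cpt1a* had a log2 difference of -0.14 ± 0.19 (adjusted p = 0.601), *Ehhadh* of 0.06 ± 0.30 (adjusted p = 0.898) and *Angptl4* of 0.28 ± 0.47 (adjusted p = 0.679). The median over the 9 members was 2.62 and that over all genes -0.04.

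The comparison of Cort with no treatment in WT mice used the same 5 untreated livers. Again 6 members were called, all higher and all with libraries apart, where 33.2% of all genes were called, 17% were called higher and 24% were apart. *Cyp4a14* was at 2417, 2956, 4066 and 4816 CPM in the WT Cort livers (log2 5.14 ± 0.72, adjusted p = 1.04e-05), *Cyp4a10* at 1159, 1374, 1600 and 2512 CPM (log2 2.96 ± 0.47, adjusted p = 4.03e-05) and *Cyp4a31* at 25.9, 33.7, 24.1 and 58.3 CPM (log2 2.83 ± 0.44, adjusted p = 3.54e-05). *Fgf21*, at 29.6, 10.7, 5.83 and 14 CPM (log2 5.05 ± 0.57, adjusted p = 6.96e-07), and *Acot1*, at 62.9, 83, 74.7 and 135 CPM (log2 2.38 ± 0.42, adjusted p = 0.000124), stood above every untreated WT liver. *Ehhadh* took the place of *Pdk4* among the called members. It was at 233, 275, 335, 289 and 165 CPM in untreated WT livers and at 346, 457, 446 and 636 CPM after Cort (log2 0.79 ± 0.24, adjusted p = 0.0136), and without WT Cort replicate 4, the highest, the difference was 0.60 with an adjusted p of 0.0774. *Pdk4* was at 47.7, 7.48, 5.08 and 9.82 CPM after Cort (log2 0.89 ± 0.49, adjusted p = 0.166). In replicate 1 it reached the level of the Dex livers, and in the other replicates that of untreated livers.

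These comparisons join libraries of different experiments. The treated mice had been fasted and given glucose for the tolerance test, whereas free feeding is all that is stated for the untreated mice. The 3-week Dex libraries are labelled unstranded and the others stranded. The Cort libraries, however, held 50.05 to 50.1% of counts on the larger strand, like unstranded ones. In untreated libraries this share was 96.93 to 97.5% and in 1 h libraries 97.4 to 97.72%. Strandedness thus also went with the 3 weeks of treatment. Treatment, fasting, cohort and library preparation cannot be told apart.

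The same comparison was made in E47KO livers. After Dex, 7 members were higher than in untreated E47KO livers, where 37.8% of all genes were called and 19.4% were called higher. *Cyp4a14* was at 234, 169, 99.4, 331, 211 and 6.69 CPM untreated and at 8727, 4388 and 3486 CPM after Dex (log2 4.96 ± 0.68, adjusted p = 3.35e-06). *Cyp4a10* was at 243, 157, 293, 312, 366 and 42.7 CPM untreated and at 3828, 2534 and 1624 CPM after Dex (log2 3.48 ± 0.46, adjusted p = 1.99e-06). *Fgf21* (log2 3.78 ± 0.52), *Acot1* (2.69 ± 0.41), *Pdk4* (2.73 ± 0.50) and *Cyp4a31* (2.23 ± 0.43) were also called, and the libraries of all 6 were apart against 30.9% of all genes. *Ehhadh* was the seventh, with a log2 difference of 0.88 ± 0.25 (adjusted p = 0.00634) but overlapping libraries, and it was 0.42 (adjusted p = 0.234) without E47KO Dex replicate 1.

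After Cort, 4 members were higher and 1 lower in E47KO livers than in untreated E47KO livers, where 38.9% of all genes were called, 21% higher and 18% lower. The 4 were *Cyp4a14* (log2 4.05 ± 0.64, adjusted p = 2.68e-05), *Fgf21* (3.14 ± 0.49, adjusted p = 2.28e-05), *Cyp4a10* (2.50 ± 0.43, adjusted p = 7.09e-05) and *Acot1* (1.60 ± 0.39, adjusted p = 0.0021), all with libraries apart against 26.1% of all genes. *Cpt1a* was lower by a log2 difference of -0.40 ± 0.15 (adjusted p = 0.0301) with overlapping libraries, and missed the threshold without E47KO Cort replicate 2 (adjusted p = 0.0925) or 3 (0.147) or without untreated E47KO replicate 2 (0.0643). *Cyp4a31* was at 2.67, 9.87, 7.41, 3.37, 18 and 4.3 CPM in untreated E47KO livers and at 13.4, 11.6, 7.08 and 16.4 CPM after Cort (log2 0.57 ± 0.41, adjusted p = 0.277), with overlapping libraries.

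**Figure D2:**
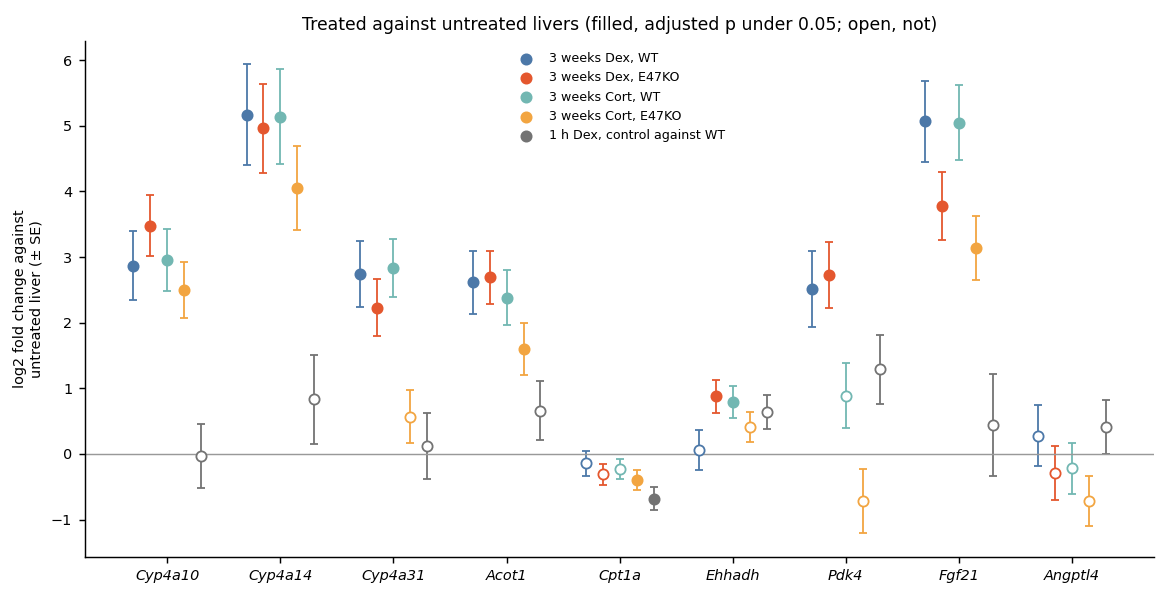
Log2 fold differences (± SE) of each gene in treated livers against untreated livers of the same genotype, and in 1 h Dex controls against untreated WT livers; filled points have an adjusted p under 0.05. *Cyp4a10*, *Cyp4a14*, *Acot1* and *Fgf21* were higher in all 4 groups after 3 weeks, *Cyp4a31* in 3 of them, and *Cpt1a* was lower 1 h after Dex.

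Dex and Cort were given at different concentrations, so their values stand side by side here as measured. Between WT Cort and WT Dex livers 0 of 9 members were called by edgeR, where 23.9% of all genes were called, and 2 had an unadjusted p under 0.05, *Pdk4* and *Ehhadh*, against 36.2% of all genes. DESeq2 also called 0. *Pdk4* was lower after Cort (log2 -1.62 ± 0.61, adjusted p = 0.0534), and without WT Cort replicate 1 the difference was -2.80 (adjusted p = 0.000429). *Ehhadh*, the single member apart in this comparison against 48.3% of all genes, had a log2 difference of 0.73 ± 0.32 (adjusted p = 0.102). Between E47KO Cort and E47KO Dex livers 2 members were called, both lower after Cort and with libraries apart, where 27.5% of all genes were called, 12.7% were called lower and 37.7% were apart. *Pdk4* was at 9.68, 3.41, 4.92 and 5.13 CPM after Cort and at 76.8, 42 and 57.7 CPM after Dex (log2 -3.44 ± 0.59, adjusted p = 0.000109). *Cyp4a31* was at 7.08 to 16.4 CPM after Cort and at 32.6, 52.9 and 23.1 CPM after Dex (log2 -1.66 ± 0.48, adjusted p = 0.0111), and missed the threshold without E47KO Dex replicate 2 (-1.31, adjusted p = 0.0774).

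At 1 h after Dex, 1 of 9 members was called in control livers against untreated WT livers, where 20.4% of all genes were called and 10.4% were called lower. *Cpt1a* was at 383, 357, 566, 741 and 574 CPM in untreated WT livers and at 293, 310 and 323 CPM in the 1 h controls (log2 -0.68 ± 0.17, adjusted p = 0.00501), and its libraries were apart against 22.5% of all genes. *Pdk4* was at 17.6, 14.4 and 29.1 CPM in the 1 h controls, all above 4 of the 5 untreated WT livers (log2 1.29 ± 0.53, adjusted p = 0.0895), and without replicate 4 of these the difference was 1.98 (adjusted p = 0.00669). That untreated library, with *Pdk4* at 23.3 CPM, also had the highest sum of muscle markers among livers, 496 CPM, and the part of this in the result was not tested. The controls were floxed mice and not the WT mice of the untreated group, and here too experiment and treatment cannot be told apart. The median over members was 0.44 and that over all genes -0.04.

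Loss of E47 moved no member past the threshold. At an adjusted p under 0.05 edgeR called 0 of 9 members in livers after Dex, after Cort, without treatment and at 1 h, 0 of the 8 members tested in WAT and 0 of the 7 tested in muscle. Of all genes it called 0.00752% after Dex, 0.0274% after Cort, 0.0288% in untreated livers, 0% at 1 h and in WAT, and 0.0134% in muscle, so few genes of any kind were called. DESeq2 called 1 member after Cort and 1 in muscle and 0 in the other comparisons. At 1 h and in WAT, where edgeR called 0 genes, DESeq2 called 4 and 38, none of them members. Members with an unadjusted p under 0.05 numbered 1 after Dex against 3.08% of all genes, 2 after Cort against 9.84%, 0 in untreated livers against 3.63%, 6 at 1 h against 3.7%, 0 in WAT against 4.29% and 2 in muscle against 3.94%.

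**Figure D3:**
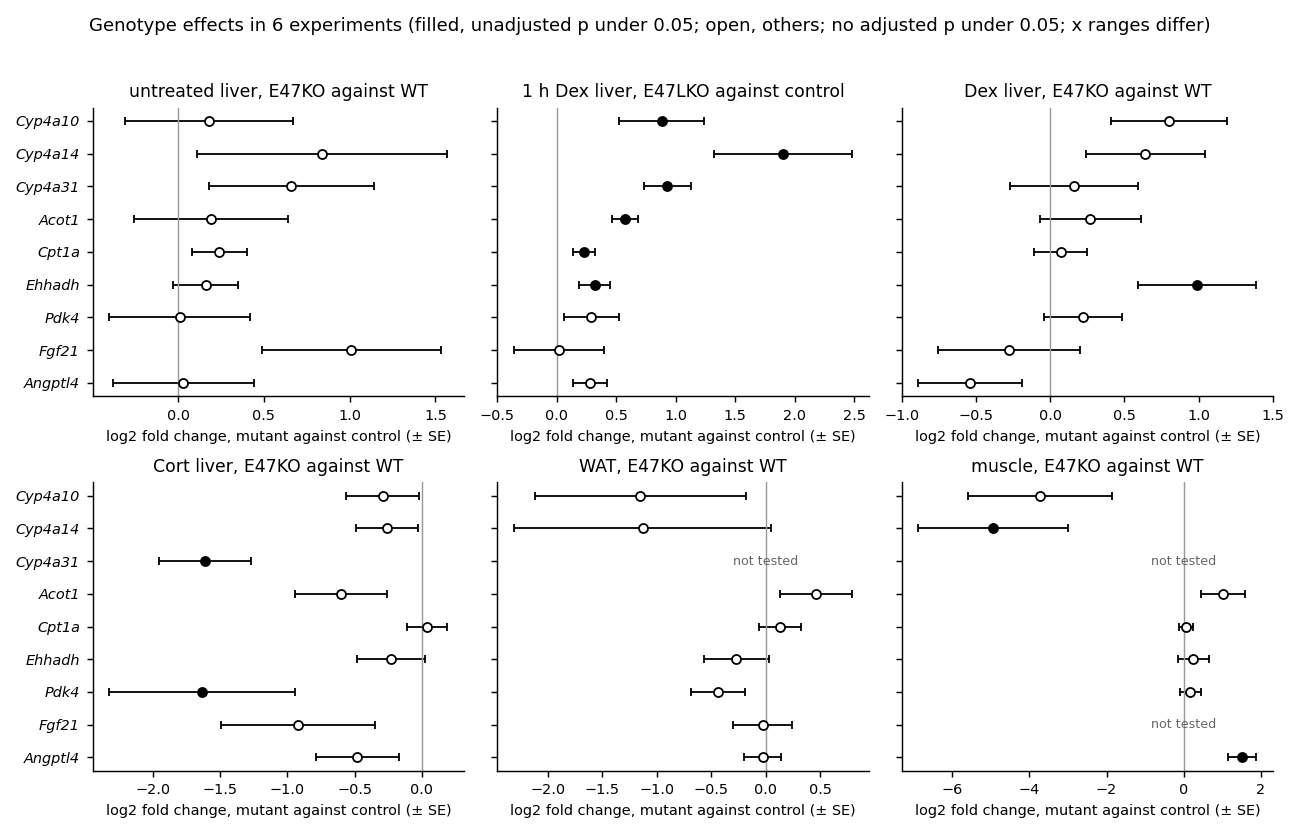
Log2 fold differences (± SE) between mutant and control for each gene, 1 panel an experiment, with x ranges that differ between panels; filled points have an unadjusted p under 0.05, and no point has an adjusted p under 0.05. In the 1 h panel all 9 points lie above 0 and 6 are filled, and in the Cort panel 8 of 9 lie below 0 with *Cyp4a31* and *Pdk4* filled.

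At 1 h after Dex the mean levels of the 3 *Cyp4a* members were higher in E47LKO livers than in controls, but no member passed the adjusted threshold. All 9 members were fitted higher, with a median log2 difference of 0.32 against 0.00 over all genes. The 6 members with an unadjusted p under 0.05 were all higher, against 1.78% of all genes, and 4 had libraries apart, all higher, where 8.46% of all genes were apart and 4.04% apart with E47LKO higher. The adjusted p of each member was 0.9998 (edgeR). The unadjusted p (edgeR) was 0.000765 for *Acot1*, 0.00138 for *Cyp4a31* and 0.0109 for *Cyp4a14*. Over all alternatives the adjusted p ran from 0.133 to 0.9999 for *Cyp4a31* and from 0.141 to 0.9999 for *Acot1* and *Cyp4a14*. *Cyp4a14* was at 52.9, 114 and 331 CPM in controls and at 834, 415 and 597 CPM in E47LKO livers (log2 1.90 ± 0.58). *Cyp4a31* was at 3.8, 4.53 and 6.41 CPM in controls and at 10.6, 8.9 and 8.62 CPM in E47LKO livers (0.93 ± 0.20). *Acot1* was at 21.4, 23.8 and 28.2 CPM and at 38.7, 34.2 and 35.6 CPM (0.57 ± 0.11), and *Cpt1a* at 293, 310 and 323 CPM and at 336, 363 and 380 CPM (0.23 ± 0.09). In these 4 every E47LKO liver stood above every control.

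*Cyp4a10*, at 118, 154 and 302 CPM in controls and 437, 404 and 214 CPM in E47LKO livers (log2 0.88 ± 0.36), and *Ehhadh*, at 326, 369 and 464 CPM and 529, 450 and 462 CPM (0.32 ± 0.13), overlapped between the groups. Control replicate 1, the animal with a wildtype E47 allele, was the lowest control for all 6, and leaving it out gave log2 differences of 1.48 for *Cyp4a14*, 0.79 for *Cyp4a31* and 0.49 for *Acot1*. Control replicate 3 was the highest control for all 6, and without it the differences of *Cyp4a14* and *Cyp4a10* were 2.88 and 1.36. *Pdk4* was at 17.6, 14.4 and 29.1 CPM in controls and at 22.6, 27.3 and 24.5 CPM in E47LKO livers. *Angptl4*, at 145, 153 and 183 CPM in controls and 164, 228 and 188 CPM in E47LKO livers, overlapped as well. *Fgf21* was at 0.387 to 0.68 CPM in all 6 livers.

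After 3 weeks of Cort 8 of 9 members were fitted lower in E47KO livers, with a median log2 difference of -0.48 against 0.00 over all genes, and the scarce *Cyp4a31* had the smallest p. It was at 25.9, 33.7, 24.1 and 58.3 CPM in WT livers and at 13.4, 11.6, 7.08 and 16.4 CPM in E47KO livers, without overlap (log2 -1.61 ± 0.34, adjusted p = 0.224, edgeR). It was the only member apart, in a comparison with 7.36% of all genes apart and 2.21% apart with E47KO lower. DESeq2 called it (adjusted p = 0.000204), and over all alternatives its adjusted p ran from 0.000204 to 0.481 with log2 differences of -1.81 to -1.25. The animal numbers of this experiment fall into 2 ranges. In the first, 2 E47KO livers were at 11.6 and 13.4 CPM and the single WT liver at 25.9 CPM, and in the second 2 E47KO livers were at 7.08 and 16.4 CPM and 3 WT livers at 24.1 to 58.3 CPM. *Cyp4a10*, its near copy, was at 1159 to 2512 CPM in WT and at 1472, 1040, 1280 and 1864 CPM in E47KO livers (log2 -0.29), and *Cyp4a14* at 2417 to 4816 CPM and at 3224, 2450, 3044 and 3678 CPM (log2 -0.26), both with wide overlap.

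A ratio of neighbouring genes within a library does not depend on the scaling between libraries. Per kb, *Cyp4a31* was at 1.26 to 2.06% of *Cyp4a10* in WT Cort livers and at 0.465 to 0.936% in E47KO Cort livers, apart. After Dex the ratios were 1.46 to 1.95% in WT and 0.715 to 1.76% in E47KO livers and overlapped, and in untreated livers they spread over 0.664 to 12% in WT and 0.91 to 8.48% in E47KO. Both genes share stretches with other genes, most of all with *Cyp4a32*, so the ratio depends on how reads without a unique source were counted. The ratio of *Cyp4a14* to *Cyp4a10* was 17.8 to 49.9% in untreated WT livers, 12.7 to 87.2% in untreated E47KO livers, 36.2 to 88.8% in 1 h controls and 83.1 to 226% in 1 h E47LKO livers, whose range reached past that of the livers treated for 3 weeks. In all 13 livers after 3 weeks of Dex or Cort *Cyp4a14* exceeded *Cyp4a10*, at 140 to 214%.

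**Figure D4:**
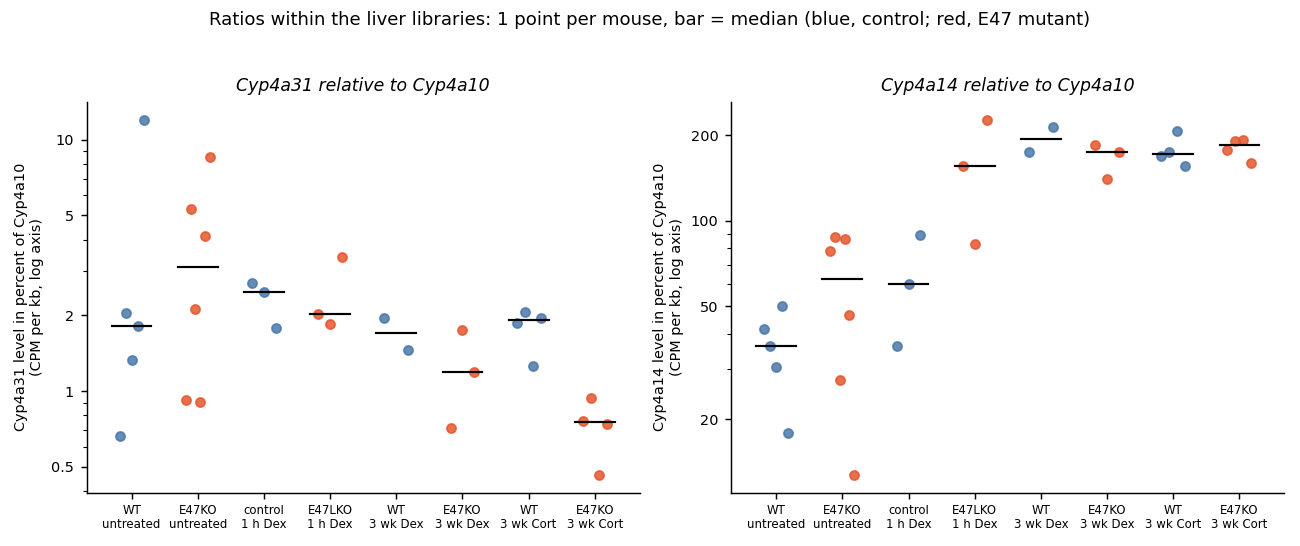
Level of *Cyp4a31* and of *Cyp4a14* in percent of *Cyp4a10* (CPM per kb, log axes), with 1 point a liver and a bar at the median of each group. *Cyp4a31* stood at 0.465 to 0.936% in E47KO and 1.26 to 2.06% in WT livers after Cort, and *Cyp4a14* above 100% in all livers after 3 weeks of Dex or Cort.

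Of the other members after Cort, *Pdk4* had the only further unadjusted p under 0.05, and both were lower in E47KO livers, against 6.06% of all genes. It was at 47.7, 7.48, 5.08 and 9.82 CPM in WT and at 9.68, 3.41, 4.92 and 5.13 CPM in E47KO livers (log2 -1.63 ± 0.69, adjusted p = 0.486, edgeR). Without WT replicate 1 the difference was -0.44 (adjusted p = 0.761, edgeR), so the value rests on 1 liver. That liver was the single WT liver in the first range of animal numbers, where the 2 E47KO livers were at 3.41 and 9.68 CPM. It had a muscle marker sum of 0.799 CPM, the lowest of the WT Cort livers. The sums in WT Cort replicates 2 to 4 were 158, 201 and 162 CPM. In E47KO Cort livers they were 1.05, 1.03, 173 and 152 CPM. The part of muscle RNA in the *Pdk4* values of the Cort livers was not tested. *Fgf21* was at 29.6, 10.7, 5.83 and 14 CPM in WT and 15.4, 10.1, 3.04 and 4.48 CPM in E47KO livers (-0.92 ± 0.57, adjusted p = 0.661, edgeR), and *Acot1* at 62.9 to 135 and 73.6, 39.9, 37.2 and 92.9 CPM (-0.60 ± 0.34, adjusted p = 0.629, edgeR). *Ehhadh* (-0.23 ± 0.25), *Angptl4* (-0.48 ± 0.31) and *Cpt1a* (0.04 ± 0.15) overlapped between genotypes.

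After 3 weeks of Dex *Ehhadh* was the only member with an unadjusted p under 0.05, higher in E47KO livers like 1.17% of all genes. It was at 336 and 211 CPM in WT and at 883, 427 and 343 CPM in E47KO livers (log2 0.99 ± 0.40, adjusted p = 0.999, edgeR), and was the 1 member apart where 14% of all genes were apart and 7.25% apart with E47KO higher. The nearest livers were at 343 and 336 CPM, and without E47KO replicate 1 the difference was 0.51. *Cyp4a10*, at 1990 and 1033 CPM in WT and 3828, 2534 and 1624 CPM in E47KO livers, had a difference of 0.80 ± 0.39 (adjusted p = 0.999, edgeR), and *Cyp4a14* and *Acot1* were fitted 0.64 and 0.27 higher, all with overlap. E47KO replicate 1 was the highest liver for *Cyp4a10*, *Cyp4a14*, *Acot1* and *Ehhadh* alike. *Fgf21* was at 16.3 and 12.3 CPM in WT and at 18, 4.8 and 12.8 CPM in E47KO livers (-0.28), and *Pdk4* at 45.4 and 54.1 and at 76.8, 42 and 57.7 CPM (0.22 ± 0.26).

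In untreated livers all 9 members were fitted higher in E47KO mice, but all overlapped, in a comparison with 0.367% of all genes apart, and none had an unadjusted p under 0.05. The median log2 difference was 0.19 against -0.01 over all genes. *Fgf21* had the largest, 1.01 ± 0.52 (adjusted p = 0.965, edgeR), with 0.227 to 0.647 CPM in WT and 0.579, 0.844, 0.538, 0.414, 2.43 and 0.333 CPM in E47KO livers. *Cyp4a14* followed with 0.84 ± 0.73 (adjusted p = 0.965, edgeR). *Cpt1a* was at 357 to 741 CPM (median 566) in WT and 506 to 718 CPM (median 627) in E47KO livers (0.24 ± 0.16, adjusted p = 0.965, edgeR), and *Pdk4* (0.01 ± 0.41) and *Angptl4* (0.03 ± 0.41) had nearly equal means.

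Whether the genotype effect itself differed between treatments was tested over the 24 livers of the global knockout and WT mice. For the effect after Cort minus that in untreated livers 0 members had an adjusted p under 0.05 by edgeR, against 0.00626% of all genes, and 3 had an unadjusted p under 0.05, all lower, against 6.42% of all genes and 3.11% lower. These were *Cyp4a31* (log2 -2.26 ± 0.65, adjusted p = 0.569, edgeR), *Fgf21* (-1.91 ± 0.81, adjusted p = 0.725, edgeR) and *Pdk4* (-1.61 ± 0.75, adjusted p = 0.749, edgeR). The value of *Pdk4* was -0.44 without WT Cort replicate 1, and that of *Fgf21* -1.25 without untreated E47KO replicate 5. For Cort minus Dex, with 0% of all genes called 2.73% at an unadjusted p under 0.05 and 1.49% at such a p and lower, 2 members had one, both lower, *Ehhadh* (-1.20 ± 0.46, and -0.72 without E47KO Dex replicate 1) and *Cyp4a31* (-1.76 ± 0.80), each with an adjusted p of 0.9999 (edgeR). For Dex minus untreated, with 0% and 3.75%, it was 0 of 9. DESeq2 called 0 members in each. The difference between the 1 h experiment and the others was not tested, since it used another allele of E47.

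Outside the liver the members stood in another order of level. After 3 weeks of Dex *Pdk4* was the most abundant member per kb in muscle, at 2690 and 3309 CPM in WT and 4277, 2466 and 3536 CPM in E47KO muscles, against 42 to 76.8 CPM in the 5 Dex livers. Over both genotypes, and after TMM scaling, it was 59.8 times as high in muscle as in liver (log2 5.90 ± 0.31, adjusted p = 2.63e-09). In WAT, *Angptl4* led with 1462 and 1656 CPM in WT and 1616 and 1449 CPM in E47KO mice, 6.91 times the liver level (log2 2.79 ± 0.29, adjusted p = 2.43e-06), and *Pdk4* was at 939, 1260, 711 and 909 CPM, 10.1 times the liver level (3.33 ± 0.27, adjusted p = 2.57e-07). These folds between WAT and liver depend on the scaling, since the mean CPM without TMM gave ratios of 12.2 for *Angptl4* and 17.3 for *Pdk4*. *Angptl4* was low in muscle, with 8.99 to 42.9 CPM. The *Cyp4a* members were scarce outside the liver. *Cyp4a10* and *Cyp4a14* stayed at or below 2.61 CPM in WAT and, but for 1 library, at or below 1.11 CPM in muscle, and *Cyp4a31* at or below 0.28 CPM in both.

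All 9 members were called between muscle and liver, 1 higher and 8 lower, where 76.4% of all genes were called, 40.4% higher and 36% lower, and all 9 between WAT and liver, 2 higher and 7 lower, where 75.4% were, 41.6% higher and 33.8% lower. Between muscle and WAT 6 were called, *Pdk4* and *Acot1* higher and *Cpt1a*, *Ehhadh*, *Fgf21* and *Angptl4* lower, where 77.3% were, 33.8% higher and 43.5% lower. The median of all genes was at 0.11, 0.19 and -0.25 on the log2 scale in these 3 comparisons. *Fgf21* was at 1.81 to 2.06 CPM in WAT and at 0 to 0.0458 CPM in muscle. *Cpt1a*, whose muscle counterpart is another gene, was at 54.4 to 80 CPM in WAT and 12.9 to 18.6 CPM in muscle, and *Ehhadh* at 24.5 to 45.3 and 5.4 to 13.1 CPM. The 3 mice that gave liver and muscle were treated as independent samples.

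In muscle *Angptl4* was the member with the clearest separation of genotypes. It was at 8.99 and 14.3 CPM in WT and 42.9, 21.7 and 36.5 CPM in E47KO muscles (log2 1.51 ± 0.37, adjusted p = 0.669, edgeR), the only member apart, where 15.2% of all genes were apart and 9.03% apart with E47KO higher. DESeq2 called it (adjusted p = 0.00406), and over all alternatives its adjusted p ran from 0.00406 to 0.9998. Adipocyte markers moved with it. All 10 markers were higher in every E47KO muscle than in every WT muscle, with sums of 1231 to 1590 CPM against 667 and 698 CPM, among them *Adipoq* at 47.6 to 64.5 CPM against 5.28 and 18.4 CPM. *Angptl4* in WAT was at 1449 to 1656 CPM, and the part of adipocyte RNA in the muscle result was not tested. *Angptl4* was higher with an unadjusted p under 0.05, like 2.91% of all genes, and 1 member was lower with such a p, like 1.04% of all genes. This member, *Cyp4a14* (-4.94, adjusted p = 0.9996, edgeR), was at 0 and 16.8 CPM in WT and 0.0743, 0 and 0.761 CPM in E47KO muscles. The value came from WT replicate 2, in which the hepatocyte markers summed to 252 CPM, against 9.2 CPM in WT replicate 1 and 41.8 to 131 CPM in E47KO muscles. In E47KO muscles nearly all of this sum was *Cyp2e1*, at 40.7 to 130 CPM against 55.6 CPM in WT replicate 2. *Alb* was at 122 CPM in WT replicate 2, 1.17 CPM in WT replicate 1 and 0.594 to 6.96 CPM in E47KO muscles, and none of the other 8 markers exceeded 1.61 CPM in E47KO muscles. Without that library, WT was left with a single muscle at 0 and the fitted sign turned (6.67, adjusted p = 0.999, edgeR).

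In WAT *Pdk4* was at 939 and 1260 CPM in WT and at 711 and 909 CPM in E47KO mice (log2 -0.44 ± 0.25, adjusted p = 0.977, edgeR). It was the only member apart, where 30.2% of all genes were apart and 16.3% apart with E47KO lower. *Angptl4* had a difference of -0.03 ± 0.17, and *Acot1*, at 2.58 and 3.56 against 3.47 and 5 CPM, of 0.46 ± 0.33.

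The remaining genes of the pathways were read from 13 lists in the same fits. Of the 155 genes, 139 to 151 were tested in each genotype comparison, and edgeR called 0 in all 6, with 4 to 24 at an unadjusted p under 0.05. These were 8.61% of those tested after Dex, 14.6% after Cort, 2.65% in untreated livers, 8.67% at 1 h, 4.67% in WAT and 17.3% in muscle, where all genes gave 3.08%, 9.84%, 3.63%, 3.7%, 4.29% and 3.94%. DESeq2 called 7 after Cort (4.58% against 1.03% of all genes it fitted), 6 in muscle (3.95% against 0.359%), 2 after Dex (1.32% against 0.108%), 2 in WAT (1.32% against 0.144%) and 0 in the others. The lists were chosen for these pathways with earlier results known, and *Cidec* and *Pparg* are also among the adipocyte markers. Among genes with an unadjusted p under 0.05 and libraries apart after Cort were *Acot2*, the mitochondrial relative of *Acot1* (log2 -1.26 ± 0.42), *Pex11a*, a peroxisome division factor and PPARα target (-0.56 ± 0.14), and the lipoprotein lipase regulators *Apoc3* (-0.67 ± 0.11) and *Apoc2* (-0.61 ± 0.13), all lower in E47KO livers. *Apoa5* was at 0.30 ± 0.09. In the 1 h livers *Acadl* of mitochondrial beta-oxidation was at 0.21 ± 0.08 and *Fgfr1*, a receptor for FGF21, at -0.47 ± 0.19. In muscle the lipid droplet genes *Cidec* (2.42 ± 0.47) and *G0s2* (1.74 ± 0.41) and the lipogenic *Scd1* (2.28 ± 0.54) were apart and higher in E47KO. All 10 adipocyte markers were higher there too, with log2 differences from 0.85 for *Pparg* to 2.61 for *Plin1*. The part of adipocyte RNA in the muscle values and counts of these lists was not tested.

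After 3 weeks of Dex or Cort genes of the wider pathway were called in both directions in WT livers. Of all genes, 15.6% were called higher and 16.3% lower after Dex and 17% higher and 16.1% lower after Cort, so that the counts of several lists lie near these shares. Of 18 genes of mitochondrial fatty acid oxidation 3 were called higher and 1 lower after Dex (median log2 difference 0.12) and 6 higher and 1 lower after Cort (0.10), led by *Acadm*, the medium-chain acyl-CoA dehydrogenase, at 0.93 ± 0.13 and 0.81 ± 0.10. Of 17 peroxisomal genes 2 were higher and 6 lower after Dex (-0.46) and 5 higher and 2 lower after Cort (0.01). Of the 8 other omega-oxidation genes tested 5 were lower and 0 higher after Dex (-0.85), and 4 were lower and 1 higher after Cort (-0.50), among them *Cyp4a12a*, of the same subfamily as the members, at -1.50 ± 0.29 after Cort. *Ppara* itself was lower after Dex (-1.07 ± 0.34, adjusted p = 0.0186), and its coactivator *Ppargc1a* higher (2.59 ± 0.26, adjusted p = 4.82e-08). Of 5 ketone body genes, 2 were lower after Dex, among them *Bdh1*, which fell by 2.06 on the log2 scale, and 1 was higher and 1 lower after Cort.

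Lipid droplet and uptake genes numbered 4 higher and 2 lower of 15 after Dex and 9 higher and 2 lower after Cort, with *Plin5* at 2.27 ± 0.32 and 1.74 ± 0.27. Of 12 fed-state lipogenic genes 9 were called lower and 1 higher after Dex (median -2.14), and 6 lower and 1 higher after Cort (-0.96), with *Srebf1* at -3.57 ± 0.51 and -1.77 ± 0.35. Of 12 GR targets 8 were higher and 0 lower after Dex (1.78) and 4 higher and 0 lower after Cort (0.60). Of 9 genes of pyruvate dehydrogenase control, the pathway of *Pdk4*, 0 were higher and 2 lower in either, *Pdk1* and *Pdhb*. Of 10 genes of the integrated stress response, which can also induce *Fgf21*, 3 were higher after Dex and 4 higher and 1 lower after Cort. Medians over all genes were -0.04 and 0.01.

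Within groups, mouse to mouse, the members split into sets. After subtracting the mean of each of the 8 liver groups from log2(CPM + 1), the correlation over the 30 livers was highest between *Cyp4a10* and *Cyp4a14* (r = 0.90), followed by *Cyp4a10* and *Acot1* (0.87), *Cyp4a14* and *Acot1* (0.80), *Acot1* and *Ehhadh* (0.76) and *Cyp4a10* and *Ehhadh* (0.75). In the same order, Spearman's rho was 0.80, 0.78, 0.68, 0.74 and 0.79. Untreated WT replicate 5 and untreated E47KO replicate 6 were the lowest of their groups for *Cyp4a10*, *Cyp4a14*, *Acot1* and *Ehhadh*. Both fall in the same range of animal numbers, and their part in r was not tested. *Cyp4a31* had low correlations with its neighbours, with r = 0.24 for *Cyp4a10* and 0.09 for *Cyp4a14*, and was closest among members to *Cpt1a* (0.61). *Pdk4* was closest to *Fgf21* (0.57). In untreated livers alone the closest member was another for both, *Fgf21* for *Cyp4a31* (0.76, with *Cpt1a* at 0.53) and *Cpt1a* for *Pdk4* (0.76, with *Fgf21* at 0.33). The points share libraries, depth and cohorts, so these values describe the livers and are given without a test.

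**Figure D5:**
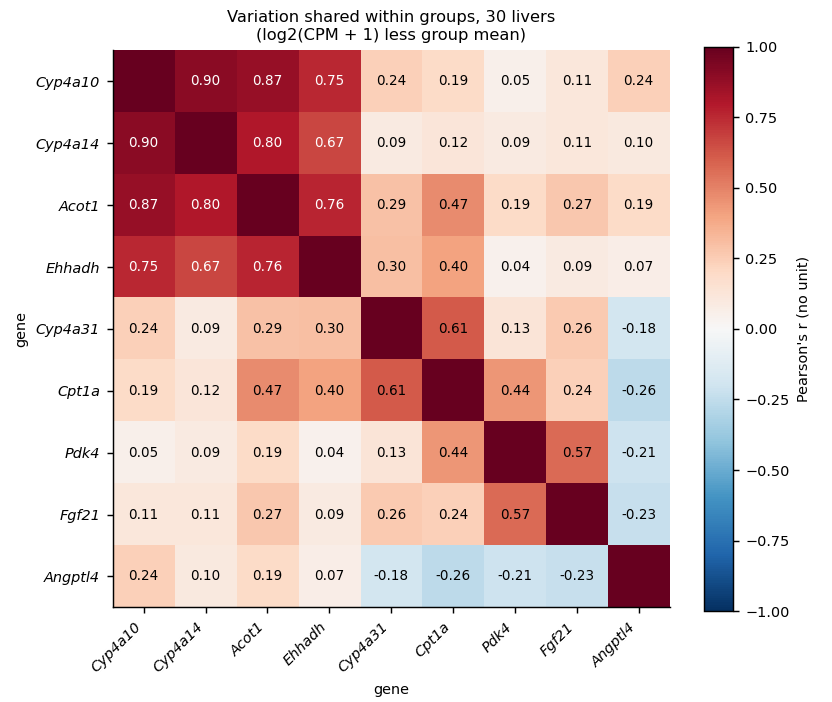
Pearson r between the 9 genes over 30 livers, of log2(CPM + 1) after subtraction of the mean of each of 8 groups. *Cyp4a10*, *Cyp4a14*, *Acot1* and *Ehhadh* form a block with r of 0.90 between the first pair, and *Cyp4a31* stands outside it with r of 0.24 and 0.09 for *Cyp4a10* and *Cyp4a14*.

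Among all 11914 genes with a mean of at least 1 CPM over the livers, those closest in pattern to this block included genes of fatty acid metabolism. *Acadm* was among the 5 genes most like *Acot1* (0.90), *Cyp4a10* (0.83), *Ehhadh* (0.78) and *Cyp4a14* (0.77). *Acot3* was named for *Acot1* (0.77). *Cpt1a* was most like *Sun2* and *Rps6ka3* (both 0.87) and had *Hadhb* of mitochondrial beta-oxidation among its 5 (0.85). *Cyp4a31* was most like *Zfand6* (0.77), with *Slc27a2*, a fatty acid transporter, at 0.75. *Angptl4* was most like *Ip6k2* (0.84), *Cebpd* (0.77), *Tsc22d3* and *Ddit4* (both 0.76), of which *Tsc22d3* is a well known glucocorticoid-induced gene. *Pdk4* was most like *Arid5a* (0.84) and *Slc16a1* (0.79), the latter a carrier of lactate and ketone bodies, and *Fgf21* most like *Tpd52l2* and *Nbn* (both 0.82).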

How the data were processed

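RNA-Seq libraries were prepared from mouse liver, WAT and muscle and aligned to mm10. The tools named in the submitters' processing notes are STAR 2.4.2a, HTSeq and DESeq2. The authors deposited raw read counts per Ensembl gene and sample with no normalization. Counts were used from the unstranded column for every library, since the Cort libraries, labelled stranded, held 50.05 to 50.1% of counts on the larger strand. Entries that name no gene (20.8 to 36.8%) were left out.

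Genotypes were compared within each experiment with the edgeR 4.0.16 quasi-likelihood F test (TMM, filterByExpr, two-sided, R 4.3.3) and Benjamini-Hochberg adjustment over all genes fitted, with 0.05 as the threshold. Further fits joined 24 livers, all 30 livers or the 14 Dex libraries of 3 tissues. The edgeR genotype fits within experiments were run on counts simulated with known changes from their own means and spreads. The joint fits and the alternatives were not run on simulated data. "Apart" means that no CPM value of one group lay within the range of the other. DESeq2 1.42.0, RLE scaling, no filter, the strand column, a replicate block, ranges of animal or library numbers and leaving out each replicate were alternatives. Same-numbered replicates were not paired.

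Counting intervals were not needed beside the replicates, and libraries with at most 3 counts of a gene are at the limit of detection. The named genes are the 9 members, *Tcf3*, examples among called list genes or up to 3 with the smallest p and libraries apart, and the 5 genes most like each member. A few genes that this rule names are not reported here. Members and lists were chosen with earlier results of these data known. Coding and transcript sequences came from the GENCODE M21 transcripts.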

Additional observations from a re-analysis of the deposited data

Results flagged for a closer look

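In 4 combinations of group and gene, over 3 groups of 4 to 6 livers, a single library stood far from the others, by the gap to its nearest neighbour over the range of the group (Dixon's criterion). Chance gives about 1 in 20, and 36 combinations of group and gene were examined. *Pdk4* was at 23.3 CPM in untreated WT replicate 4 and at 3.88 to 6.55 CPM in the other untreated WT livers. *Angptl4* was at 219 CPM in untreated WT replicate 1, where the gap to the nearest liver was 0.88 of the range of the group and the lowest liver was at 96.2 CPM. *Fgf21* was at 2.43 CPM in untreated E47KO replicate 5, against 0.333 to 0.844 CPM. *Pdk4* was at 47.7 CPM in WT Cort replicate 1, against 5.08 to 9.82 CPM. This was the single WT liver in its range of animal numbers, so it was set against WT livers of the other range.

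*Cyp4a31* had differences of opposite sign in a pair of experiments, neither past the adjusted threshold (edgeR, adjusted p = 0.9998 at 1 h and 0.224 after Cort). At 1 h after Dex every E47LKO liver was above every control, with a log2 difference of 0.93, and after 3 weeks of Cort every E47KO liver was below every WT liver, with -1.61. The difference between these effects was not tested, and the experiments differ in allele, steroid, duration and feeding.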

How the results depend on the processing

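Of the 72 member values with an unadjusted p under 0.05, of which 51 had an adjusted one, 61 kept their direction and side of the adjusted threshold under all alternatives. Over the 922 alternative values 8 lost the call, 9 gained it and 1 changed sign, *Cyp4a14* in muscle without WT replicate 2 (6.67, and -5.94 to 6.67 over the 4 fits without 1 library that gave a value). Of the other 96 member values 43 changed sign under some alternative and 5 were called under one. DESeq2 called 1 member after Cort (*Cyp4a31*) and 1 in muscle (*Angptl4*) where edgeR called 0. Same-numbered replicates were not paired by any label. Their deviations correlated at -0.51 to 0.81, and 7 of 17 pairs correlated best with their own number. The replicate block called 1 member after Cort (*Cyp4a31*, -1.57, adjusted p = 0.0416) and 0 in the other genotype comparisons it could be fitted to. In WAT no paired analysis was possible because the genotypes share 1 number. For WT Cort against WT Dex RLE scaling and the strand column each called 1 member, *Pdk4* (adjusted p = 0.0494 and 0.0309), against 0. Leaving out each library in turn gave 0 to 1 called members there, 1 to 2 for the 1 h controls and 1 to 3 for E47KO Cort against E47KO Dex. The cause was not tested. Of the 45 genes named by likeness, 24 were also named with Spearman's rho and 7 in untreated livers alone. Over all genes the genotype comparisons had 0 to 4 calls by edgeR, 1 to 62 with no filter on low counts, 0 to 74 with ranges of animal numbers, 0 to 29 with the replicate block and 4 to 258 by DESeq2. Scaling by TMM over all 39 libraries moved 21 of 108 group means by more than 1 SD. Depth limits *Fgf21* in muscle and the *Cyp4a* genes outside the liver.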
